A study of Mus musculus with 30 samples.

Results

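The genes described here are 39 genes of the DNA replication machinery, given as a list of symbols: origin licensing factors, the MCM helicase and its partners, the replicative polymerases and primase, the clamp and its loader, Okazaki fragment enzymes, enzymes of nucleotide supply and factors that copy chromatin. The list was chosen with earlier results of these data known, so its counts beside those of all tested genes are a description. All 39 were matched by symbol among the 35727 genes of the table, and all 39 were among the 16958 genes tested, which had a normalized count of at least 10 in at least 3 libraries. Their levels were measured by Smart-seq2 RNA sequencing of haematopoietic stem cells (HSC) sorted from mouse bone marrow, with 4000 to 5000 cells per sample, in 30 libraries of 8 groups. Wild-type (WT) mice gave 4 libraries at 2 months of age, 5 at 1 year and 4 at 2 years. Mice labelled IL1R1 KO, a knockout of the type 1 receptor of interleukin-1, gave 3, 4 and 5 libraries at the same ages. Mice labelled germ-free gave 3 at 2 months and 2 at 1 year. The title of the series asks about interleukin-1 and the microbiome in HSC ageing, so the comparisons are ages within a background and backgrounds at an age. No treatment is given for any group. The labels give no strain, sex or sorting markers and do not say in which cells the receptor gene is deleted. The germ-free state is labelled as one of the bowel, and what the labels call germ-free was not checked in these data.

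DNA replication starts when the origin recognition complex, Cdc6 and Cdt1 load MCM rings on DNA before S phase. Cdc45, the GINS complex and Mcm10 turn the loaded rings into active helicases, polymerase alpha with primase starts each strand, and polymerases delta and epsilon extend it behind the clamp Pcna. Fen1 trims and Lig1 joins the lagging strand fragments, and Chaf1a, Chaf1b and Uhrf1 restore nucleosomes and DNA methylation behind the fork. Many of these genes are transcribed at the entry to S phase under E2F transcription factors. Adult HSC are mostly quiescent, whereas the progenitors next to them divide more often.

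The libraries differed in ways that touch the results. Each held summed normalized counts of 27.5 to 30.7 M, and the step of the lowest values put their depth at about 15.6 to 56.3 M reads, with the germ-free 1-year replicate 1 at the lowest. The 14 HSC markers, among them Kit, Procr, Slamf1 and Hlf, summed to between 106749 and 153114 normalized counts over all libraries, and none of the 14 was at 0 throughout a group. Markers of granulocyte precursors (Mpo, Elane and 5 others) were uneven: in WT at 2 months Mpo was at 392, 73276, 1159 and 60867, and 6 of the 2-month libraries (WT replicates 2 and 4, IL1R1 KO replicates 1 and 3, germ-free replicates 1 and 3) were above 10000. Il1r1, summed over the whole gene, was at 186 to 409 in the libraries labelled IL1R1 KO and at 137 to 383 in WT. A whole-gene count does not show which exons were read, so it does not check these labels, and the group is named by its label throughout. The IL1R1 KO 1-year replicate 1 carries 1 year in its title and 2 months in its age label and was placed by its title. The design text speaks of 30 mice, but the labels do not tie each library to an animal, so p-values measure the spread between these libraries. Smart-seq2 does not mark strand. By whole-gene spans, 17 of the 39 genes overlap a gene on the other strand, among them Orc6, Mcm7, Gins2, Pola1, Rfc2, Rfc4, Rfc5, Fen1, Lig1, Tk1 and Chaf1a. Reads from bases that both transcripts share cannot be assigned by strand, and how many exon bases are shared was not checked.

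The replication genes as a set stood highest at 2 months in each background. The mean of log2(normalized count + 1) over the 39 genes was 11.37, 11.38, 11.29 and 11.35 in the WT 2-month libraries, 10.78, 10.96, 10.94, 10.95 and 10.84 at 1 year and 10.98, 11.02, 10.73 and 11.00 at 2 years. Every WT library of 1 or 2 years was below every WT 2-month library, and the 1- and 2-year libraries overlapped. In IL1R1 KO the means were 11.77, 11.40 and 11.22 at 2 months, 11.22, 10.72, 11.12 and 10.79 at 1 year and 10.86, 11.15, 11.08, 10.91 and 11.05 at 2 years. Here the 1-year replicate 1, whose labels disagree on its age, was level with the lowest 2-month library, and the 2-month replicate 1 was the highest of all 30. In germ-free libraries the means were 11.20, 11.26 and 11.35 at 2 months and 10.63 and 10.94 at 1 year, and the ages did not overlap. Single libraries moved most genes together: IL1R1 KO 2-month replicate 1 held the highest value of its group in 36 of 39 genes, WT 2-year replicate 3 the lowest in 28, and germ-free 1-year replicate 1 the lower in 34. The spread within groups (SD of log2 values) went from 0.13 for Pcna and Gins4 to 0.52 for Orc1.

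**Figure D1:**
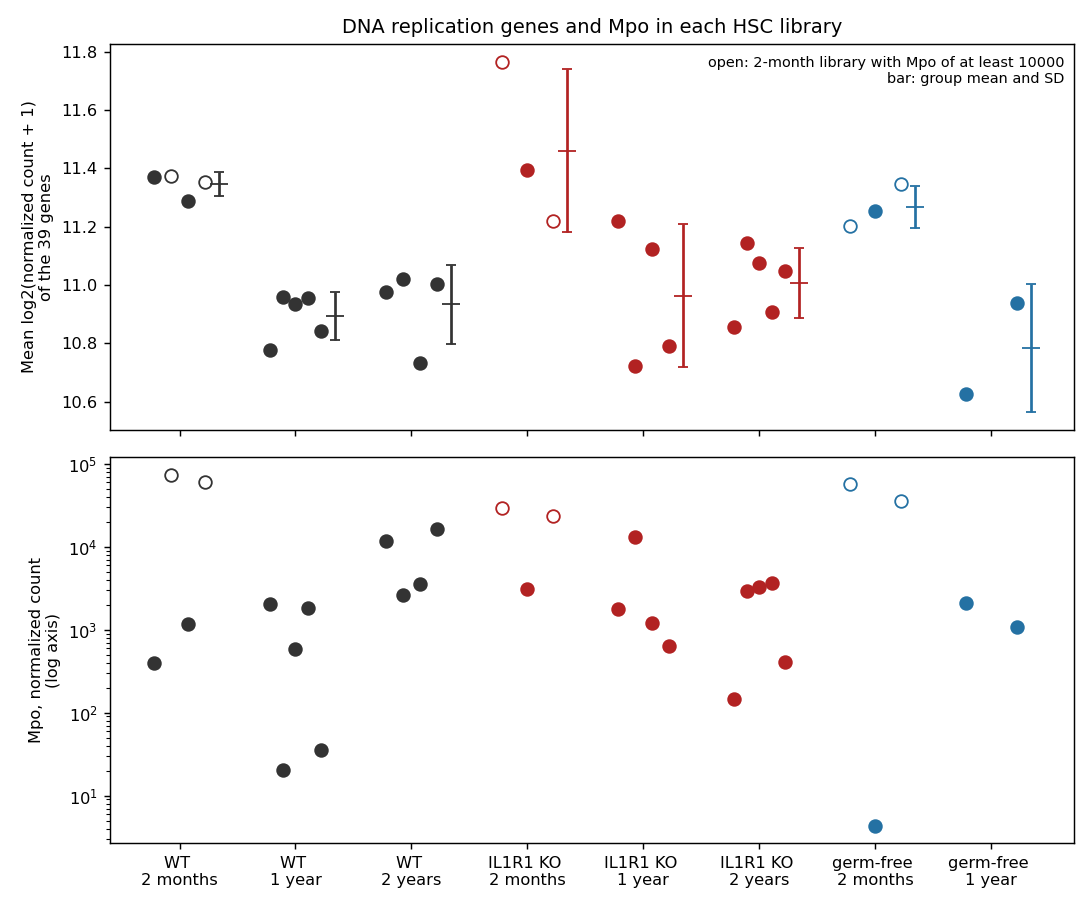
Upper panel: the mean log2(normalized count + 1) of the 39 replication genes in each library; lower panel: the normalized count of Mpo on a log axis, by group, with group means and SD as bars in the upper panel and open circles for 2-month libraries with Mpo of at least 10000. The 4 WT 2-month libraries lie at 11.29 to 11.38, and their Mpo counts run from 392 to 73276. The IL1R1 KO 2-month libraries of high Mpo, replicates 1 and 3, lie at 11.77 and 11.22. A relation between the panels was not tested.

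Single genes were tested with limma on log2(normalized count + 1), and a gene was called at a Benjamini-Hochberg adjusted p below 0.05 over all tested genes. From 2 months to 1 year in WT, 18 of the 39 genes fell and 0 rose, where 10.7% of all tested genes were called in either direction and 4.61% were called lower. The median difference was -0.43 on the log2 scale, a ratio of 0.743, against 0.01 over all tested genes. In 28 of the 39 genes every 1-year library lay below every 2-month library, against 5.62% of all tested genes. From 2 months to 2 years in WT, 9 genes fell and 0 rose (5.55% of all tested genes called, 1.63% lower), with a median of -0.40 and 21 genes without overlap (3.82% of all tested genes). From 1 to 2 years in WT no gene was called by limma, 0 were at an unadjusted p under 0.05, and the median was 0.01 (0.0118% of all tested genes called).

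IL1R1 KO libraries gave 12 lower and 0 higher genes from 2 months to 1 year (2% of all tested genes called, 0.613% lower), with a median of -0.50. From 2 months to 2 years 17 fell and 0 rose (8.02% called, 2.9% lower), with a median of -0.46. All libraries of the older group lay below all 2-month libraries in 13 genes at 1 year (5.34% of all tested genes) and in 18 genes at 2 years (7.44%). Between 1 and 2 years limma called 0 genes, 1 was at an unadjusted p under 0.05, and the median was 0.05 (0.177% of all tested genes called). In germ-free libraries 4 genes fell to 1 year, Cdt1, Mcm6, Prim1 and Tyms, and 0 rose (2.1% called, 0.814% lower), with a median of -0.46. The 2 germ-free 1-year libraries lay below all 3 of 2 months in 25 genes, a pattern that 12.6% of all tested genes showed in groups of this size.

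In all, 26 of the 39 genes were called lower in at least 1 of these 5 comparisons with 2 months, against 7.25% of all tested genes, and 35 were below 0 in all 5, against 14.3%. The WT comparisons share their 2-month libraries with each other, as do the IL1R1 KO comparisons, so these are not 5 independent results. Prim1 was called in all 5, and Rpa2 and Tyms in 4. Over the 38 alternative fits the medians ran from -0.46 to -0.41 in WT at 1 year and from -0.45 to -0.34 at 2 years, and from -0.65 to -0.36, -0.65 to -0.30 and -0.59 to -0.35 in IL1R1 KO at 1 year, IL1R1 KO at 2 years and germ-free. The number of calls moved more, and the share of all tested genes called in each of these fits is not given here. Without WT 2-month replicate 2 the calls were 11 at 1 year and 4 at 2 years. At 2 years in WT they were also 4 without 2-year replicate 3, and 5 without 2-month replicate 1 or 4 or 2-year replicate 1 or 2. Without IL1R1 KO 2-month replicate 1 they were 1 at 1 year and 4 at 2 years. At 1 year in IL1R1 KO they were 3 without replicate 2, 2 without replicate 4 and 19 without 2-month replicate 3, and 15 without replicate 1, whose age labels disagree; at 2 years they were 10 without replicate 1 and 11 without replicate 4. In germ-free the calls were 0 without 1-year replicate 1 or 2-month replicate 3, 1 without 2-month replicate 2 and 2 without 2-month replicate 1. Without germ-free 1-year replicate 2 none of the 4 genes was called, with adjusted p of 0.0914 for Cdt1, 0.052 for Mcm6, 0.0625 for Prim1 and 0.0727 for Tyms, and 3 others were, Mcm5, Prim2 and Uhrf1. Leaving out a library of WT or IL1R1 KO, which enters through the shared spread, left 1 or 2 germ-free calls for 13 of these 25 libraries.

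Markers of other cells moved with age too. In WT at 1 year 8 of the 14 HSC markers rose and 0 fell, while 4 of 6 markers of multipotent and lymphoid-primed progenitors fell: Cd34 at -0.49 ± 0.14 (SE), Flt3 at -1.46 ± 0.34 (SE), Cd48 at -3.72 ± 0.84 (SE) and Satb1 at -1.43 ± 0.46 (SE) on the log2 scale. The summed level of these 6 markers was 8123 to 10655 in WT at 2 months, 4693 to 5930 at 1 year and 4354 to 7051 at 2 years, and 7830 to 10929, 5980 to 8116 and 4980 to 6174 in IL1R1 KO. In germ-free it was 7854 to 10629 at 2 months and 6306 to 7574 at 1 year, without overlap. Also at 1 year in WT, 7 of 10 neutrophil markers and 5 of 12 erythroid markers fell (10.7% of all tested genes called, 4.61% lower). By age the mean log2 level of the erythroid markers was 8.53, 6.88 and 8.38 in WT, 9.69, 8.77 and 9.80 in IL1R1 KO and 9.67 and 9.58 in germ-free. That of the neutrophil markers was 9.08, 3.96 and 7.53 in WT, 7.96, 5.36 and 8.47 in IL1R1 KO and 9.29 and 7.32 in germ-free. The SD within groups was 0.18 to 1.59 for erythroid and 0.52 to 3.36 for neutrophil markers. Of the 7 granulocyte precursor markers 1, Prtn3, was called higher and 0 lower in WT at 1 year. By age their mean log2 level was 9.51, 6.32 and 9.36 in WT and 9.82, 7.37 and 7.94 in IL1R1 KO. In germ-free it was 8.47 and 7.51, and the SD within groups was 0.49 to 5.31. The sum of these markers in WT was 7326 to 117215 at 2 months and 13408 to 16330 at 1 year, with Fcnb at 0 in 1 library. Of the 8 monocyte and macrophage markers 1, Ccr2, fell and 0 rose in WT at 1 year. Their sum had a median of 5483 (571 to 11879) in WT at 2 months and 523 (358 to 634) at 1 year, and in germ-free it was 624 to 8710 at 2 months and 591 to 858 at 1 year. The 9 B and plasma cell markers summed to 1460 to 9097 in WT at 2 months and 1705 to 9735 at 1 year. At 2 years in WT their sum was 10252 to 82621, above every younger WT library. By age it was 1843 to 14976, 1389 to 4782 and 2129 to 21829 in IL1R1 KO. In germ-free it was 1606 to 18243 at 2 months and 3193 to 14039 at 1 year. Mpo was also above 10000 in WT 2-year replicates 1 and 4 (11719 and 16541) and IL1R1 KO 1-year replicate 2 (12930), which stayed in the next fit. Without the 6 high-Mpo libraries of 2 months the medians of the 39 genes were -0.43, -0.41, -0.51, -0.46 and -0.47 in the 5 comparisons. The calls were then 7 and 6 in WT, 0 and 1 in IL1R1 KO and 1 in germ-free (Pcna, which is not among the 4 above), with 2, 1 and 1 libraries left at 2 months; a lone library is assumed to vary like the other groups. The share of all tested genes called in that fit is not given here, so a general drop in calls cannot be seen. The part of the progenitor, monocyte and B cell markers in the result was not tested. In bulk samples fewer dividing cells and less RNA of the replication genes per cell cannot be told apart.

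**Figure D2:**
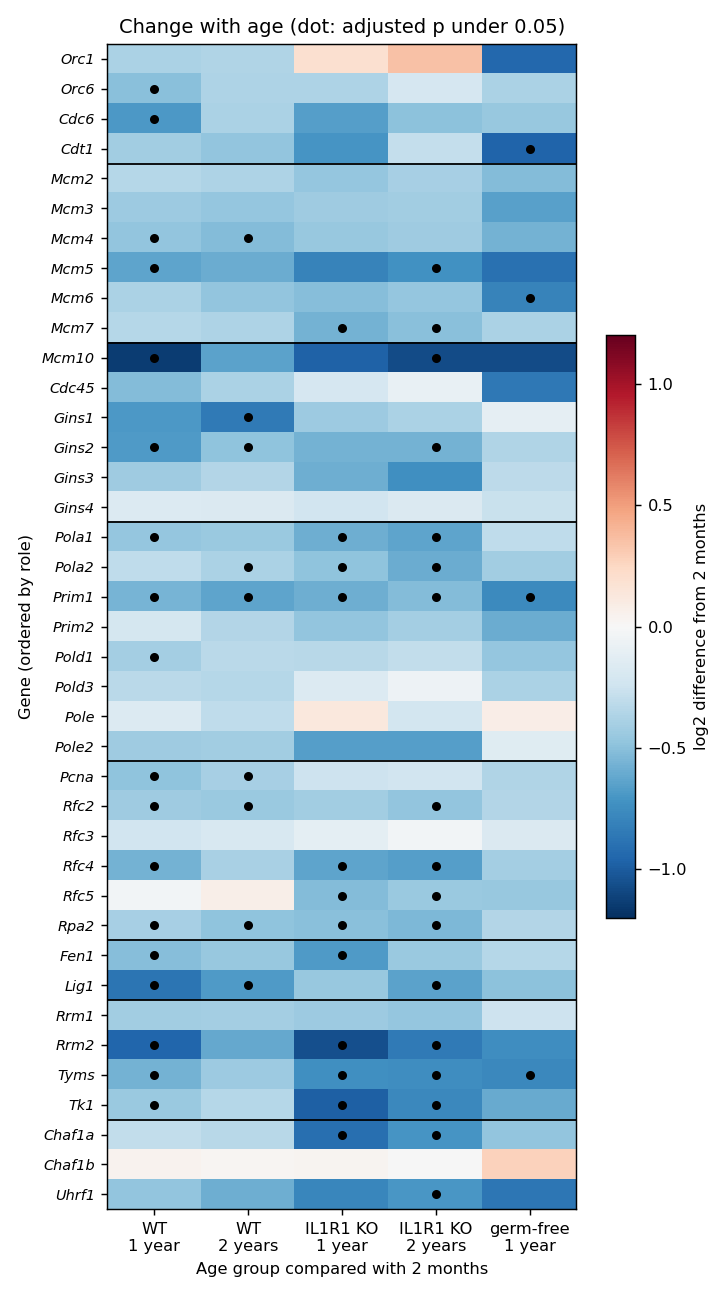
Log2 difference from 2 months of each replication gene (rows, ordered by role, lines between roles) in the 5 age comparisons (columns), with a dot where the adjusted p was under 0.05. Blue, lower than at 2 months, covers 38, 37, 36, 38 and 37 of the 39 genes from the left column to the right.

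The promoters are shown because these genes moved in 1 direction together and E2F factors are known to act on many of them. RefSeq windows (GRCm38.p6) of 300 bases, from 250 before to 50 after a start, were given for 32 of the 39 genes, in 37 windows; Mcm4, Gins1, Gins2, Gins4, Prim2, Pole and Rfc2 had none. Letters of the E2F consensus (TTTCCCGC, TTTGGCGC, TTTCGCGC or TTTGCCGC on either strand) stood in 15 of the 37 windows, or 40.5%, against 2.26% of all 32851 windows. The CCAAT box (CCAAT, either strand) was in 56.8% against 37.4%, the GC box (GGGCGG, either strand) in 73.0% against 35.7% and the CHR element (TTTGAA, either strand) in 10.8% against 17.9%. The windows of the replication genes were also richer in G and C, with a median of 58.3% against 52.7%. Among genes with a window, E2F letters were found in 9 of the 22 called in at least 1 age comparison and in 6 of the 10 called in none. A match of letters is a description and shows no binding. Of the genes with a match, 6 are printed here 5′ to 3′ on the gene's strand, chosen as called genes from licensing, the helicase, the polymerase and the ligase; capitals mark the E2F letters. The windows are chr11:98907901-98908200, + strand for Cdc6, chr8:122567765-122568064, + strand for Cdt1, chr8:75109259-75109558, + strand for Mcm5, chr1:128359656-128359955, - strand for Mcm6, chrX:93632106-93632405, - strand for Pola1 and chr7:13278576-13278875, + strand for 1 of the 3 Lig1 starts.
Cdc6: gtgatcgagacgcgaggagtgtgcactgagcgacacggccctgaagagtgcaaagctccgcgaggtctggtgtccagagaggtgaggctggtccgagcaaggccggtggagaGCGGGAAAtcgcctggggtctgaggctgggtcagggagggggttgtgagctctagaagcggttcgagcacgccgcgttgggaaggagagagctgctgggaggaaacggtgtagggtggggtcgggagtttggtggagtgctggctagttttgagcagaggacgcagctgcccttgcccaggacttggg
Cdt1: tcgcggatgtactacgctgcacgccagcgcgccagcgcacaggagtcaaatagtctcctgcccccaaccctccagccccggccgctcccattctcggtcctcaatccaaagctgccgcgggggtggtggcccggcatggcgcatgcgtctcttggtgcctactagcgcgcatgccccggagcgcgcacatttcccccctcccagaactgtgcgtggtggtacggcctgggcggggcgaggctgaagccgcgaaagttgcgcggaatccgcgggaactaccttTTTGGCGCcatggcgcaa
Mcm5: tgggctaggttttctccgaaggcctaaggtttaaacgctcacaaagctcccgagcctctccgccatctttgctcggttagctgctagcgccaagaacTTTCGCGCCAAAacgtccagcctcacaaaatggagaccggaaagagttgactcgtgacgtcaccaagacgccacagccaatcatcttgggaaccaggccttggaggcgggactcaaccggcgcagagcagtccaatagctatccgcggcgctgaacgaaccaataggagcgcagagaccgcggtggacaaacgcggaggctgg
Mcm6: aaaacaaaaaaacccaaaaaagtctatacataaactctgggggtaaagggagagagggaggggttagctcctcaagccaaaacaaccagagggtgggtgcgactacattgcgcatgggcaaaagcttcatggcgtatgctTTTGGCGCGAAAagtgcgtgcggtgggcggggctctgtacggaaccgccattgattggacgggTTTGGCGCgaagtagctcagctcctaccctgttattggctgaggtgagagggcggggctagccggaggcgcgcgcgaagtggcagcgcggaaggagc
Pola1: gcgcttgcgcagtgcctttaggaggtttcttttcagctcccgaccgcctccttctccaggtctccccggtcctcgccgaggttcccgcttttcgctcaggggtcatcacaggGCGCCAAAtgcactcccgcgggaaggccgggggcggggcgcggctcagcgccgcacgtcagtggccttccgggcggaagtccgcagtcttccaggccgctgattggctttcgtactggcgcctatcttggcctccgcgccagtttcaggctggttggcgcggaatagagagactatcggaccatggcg
Lig1: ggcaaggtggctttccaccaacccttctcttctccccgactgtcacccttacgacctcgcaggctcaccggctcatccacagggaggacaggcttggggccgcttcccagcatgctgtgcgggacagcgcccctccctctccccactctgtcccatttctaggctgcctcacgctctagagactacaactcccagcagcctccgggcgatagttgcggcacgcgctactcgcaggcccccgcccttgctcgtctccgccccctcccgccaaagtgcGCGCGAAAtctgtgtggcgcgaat
Counted with the start base as 0, the letters begin at -138 in Cdc6 and Pola1, at 32 in Cdt1 and at 26 in Lig1. Mcm5 holds overlapping matches at -153 and -149, and Mcm6 holds a like overlapping pair at -110 and -106 and another match at -47.

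**Figure D3:**
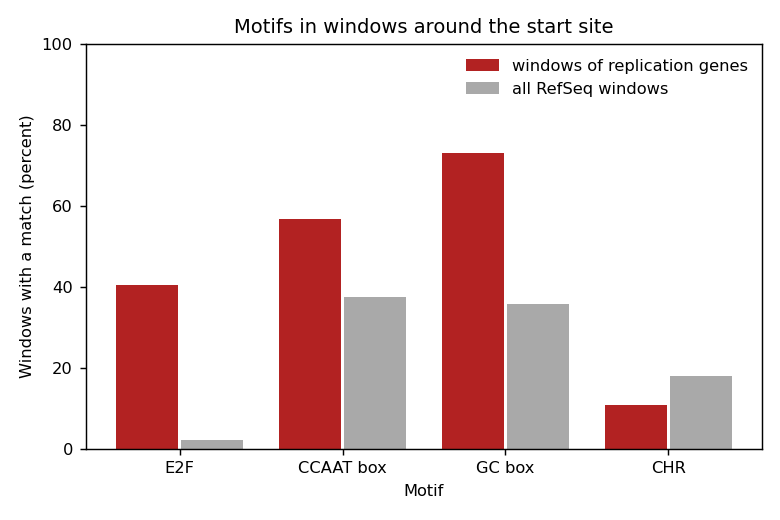
Share of 300-base RefSeq windows (percent, axis from 0) that hold each motif on either strand, for the 37 windows of replication genes and for all 32851 windows. E2F letters show the widest ratio, 40.5% against 2.26%, and the CHR element is less frequent in the replication genes, 10.8% against 17.9%.

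Among the licensing factors, Orc6 and Cdc6 fell from 2 months to 1 year in WT, and Cdt1 fell to 1 year in germ-free. Orc6, a subunit of the origin recognition complex (chr8:85299632-85308278, the span of the gene in GENCODE on GRCm38, as for the genes that follow), had normalized counts in WT of 1493, 1267, 1425 and 1429.9 at 2 months, 920.3, 1043, 999, 959 and 1033 at 1 year and 1037, 1152, 1093 and 1043 at 2 years. Orc6 counts in IL1R1 KO were 1704, 1163 and 1277 at 2 months, 1172, 1037, 1008 and 995 at 1 year and 1075, 1204, 1392, 1171 and 1101 at 2 years. In germ-free Orc6 was at 1346, 1371 and 1162 at 2 months and 834 and 1174 at 1 year. All WT libraries of 1 and 2 years were below those of 2 months, and in IL1R1 KO and germ-free the ages overlapped. The WT difference was -0.50 ± 0.11 (SE, adjusted p = 0.00416) at 1 year and -0.37 ± 0.12 (SE, adjusted p = 0.0654) at 2 years. Cdc6, the ATPase that works with the origin recognition complex in loading MCM rings (chr11:98907801-98923940), had WT counts of 1178, 1557, 1004 and 1402 at 2 months, 709, 841, 887, 857 and 655 at 1 year and 1023, 947, 826 and 1130.2 at 2 years. Cdc6 counts in IL1R1 KO were 1947, 1331 and 1192 at 2 months, 1272, 601, 1179 and 795 at 1 year and 737, 1072, 1218, 1003 and 1241 at 2 years. In germ-free Cdc6 was at 963, 1268 and 1197 at 2 months and 729.7 and 937 at 1 year. Only the 1-year groups of WT and germ-free lay wholly below their 2-month groups. Cdc6 fell, with log2 differences of -0.69 ± 0.20 (SE) in WT at 1 year (adjusted p = 0.0201), and was at -0.66 ± 0.22 (SE, adjusted p = 0.129) in IL1R1 KO at 1 year. Cdt1, which brings MCM rings to origins and is held in check by geminin (chr8:122568015-122573554), was at 2282, 2661 and 2056 at 2 months and 1097 and 1290.1 at 1 year in germ-free libraries. Its WT counts were 2282, 2297, 2139 and 1812 at 2 months, 1370.3, 1661, 1648, 1718 and 1569 at 1 year and 1574, 1965, 1225 and 1460.3 at 2 years, and its IL1R1 KO counts 2881, 2311 and 1668 at 2 months, 2192, 868, 1552 and 1179 at 1 year and 2132, 2079, 1713, 1425 and 1899.7 at 2 years. Both germ-free 1-year libraries were below all germ-free 2-month libraries and below all WT 1-year libraries, and in WT the 1-year libraries were below those of 2 months. The difference to 1 year was -0.96 ± 0.26 (SE, adjusted p = 0.0436) in germ-free and -0.42 ± 0.19 (SE, adjusted p = 0.170) in WT. Orc1, the largest subunit of the origin complex, was called nowhere, with differences of -0.38 ± 0.34 (SE) in WT and 0.19 ± 0.39 (SE) in IL1R1 KO at 1 year at counts of at most 279.

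All 6 subunits of the MCM ring, the replicative helicase, were below their 2-month mean in all 5 age comparisons, and 4 were called in at least 1. Mcm4 (chr16:15623897-15637400) was at 5506, 5999, 5133 and 6141 at 2 months, 3555, 4293, 4366, 4254 and 4041 at 1 year and 4032, 4283, 2895 and 4978 at 2 years in WT. Mcm4 was at 6839, 6046 and 4497 at 2 months, 5334, 3515, 4528 and 3531 at 1 year and 3897, 5029, 4639.5, 3637 and 4121 at 2 years in IL1R1 KO and at 4872, 4816 and 5196 at 2 months and 2862 and 3889 at 1 year in germ-free. Both older WT groups and the germ-free 1-year group were wholly below 2 months. In WT it fell, with log2 differences of -0.47 ± 0.14 (SE) to 1 year and -0.52 ± 0.15 (SE) to 2 years (adjusted p = 0.0303 and 0.0391). Mcm5 (chr8:75109569-75128439) was at 8873, 8643, 7682 and 6765 at 2 months, 3674, 5274, 5401, 6312 and 5352 at 1 year and 5612, 5800.0, 4218 and 5549 at 2 years in WT. Mcm5 counts in IL1R1 KO were 12974, 8495 and 7358 at 2 months, 7394, 3883, 6561 and 4339 at 1 year and 5127, 7084, 6149, 4723 and 5448 at 2 years. In germ-free Mcm5 was at 7047, 7369.8 and 7669 at 2 months and 2915 and 5373 at 1 year. All older groups except IL1R1 KO at 1 year lay wholly below their 2-month libraries. Mcm5 fell, with log2 differences of -0.63 ± 0.19 (SE) in WT at 1 year (adjusted p = 0.0318) and -0.72 ± 0.21 (SE) in IL1R1 KO at 2 years (adjusted p = 0.0293). Mcm6 (chr1:128331590-128359664) was at 9897, 11841 and 12550.4 at 2 months and 5667 and 7545 at 1 year in germ-free libraries and at 15989, 16308, 14919.6 and 14141 at 2 months, 9232, 12322, 13807, 12597 and 11405 at 1 year and 10094, 13405, 9323 and 11675 at 2 years in WT. In IL1R1 KO Mcm6 was at 20482, 16513 and 11576 at 2 months, 14129.8, 8745, 14061 and 8622 at 1 year and 10662, 12105, 12361, 9672 and 12747 at 2 years. Every germ-free 1-year value was below every other Mcm6 value of germ-free and WT mice. The change to 1 year in germ-free was -0.80 ± 0.22 (SE, adjusted p = 0.0489). Mcm7 (chr5:138164583-138172422), whose intron holds a miRNA cluster and whose gene overlaps Ap4m1 and Cops6, was at 15032, 11142 and 9257 at 2 months, 9358, 6741, 8451 and 6909 at 1 year and 7263, 8957, 8674, 7289.7 and 8746 at 2 years in IL1R1 KO. Mcm7 in WT was at 9519, 10419.7, 9939.6 and 9999 at 2 months, 7033, 8634, 8232, 8159 and 7329 at 1 year and 8551, 8169, 6168 and 8197 at 2 years, and in germ-free at 8454, 8641 and 9237 at 2 months and 6687 and 6783 at 1 year. The ages overlapped in IL1R1 KO at 1 year but not at 2 years. In IL1R1 KO it fell, with log2 differences of -0.57 ± 0.13 (SE) to 1 year and -0.51 ± 0.13 (SE) to 2 years (adjusted p = 0.0195 and 0.0110). Mcm2 and Mcm3 were called in no age comparison, with WT differences at 1 year of -0.34 ± 0.17 (SE) and -0.43 ± 0.15 (SE).

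Of the factors that activate the helicase, Mcm10 and Gins2 fell in WT at 1 year. Mcm10, which helps to start the loaded helicase (chr2:4989714-5012791), was at 874, 1044, 929 and 1158 at 2 months, 345, 709, 439, 367 and 469.7 at 1 year and 615, 606, 781 and 567 at 2 years in WT. Mcm10 counts in IL1R1 KO were 1448, 1104 and 853 at 2 months, 638, 460.2, 800.2 and 436 at 1 year and 244, 537, 778, 654 and 604 at 2 years. In germ-free Mcm10 was at 765, 1045 and 1277 at 2 months and 334 and 681 at 1 year. In all 5 age comparisons every older library was below every 2-month library. Its difference in WT at 1 year, -1.14 ± 0.27 (SE, adjusted p = 0.00575), had the lowest estimate of the 39 genes, and in IL1R1 KO at 2 years it was -1.07 ± 0.30 (SE, adjusted p = 0.0214). WT libraries of 2 years were at -0.64 ± 0.29 (SE, adjusted p = 0.222) against 2 months. Gins2, a subunit of the GINS complex (chr8:120578633-120589304), was at 3831, 3773, 3345 and 4248 at 2 months, 2288, 2275, 2345, 2699 and 2269.6 at 1 year and 2853, 3124, 2346 and 2544 at 2 years in WT. Gins2 counts in IL1R1 KO were 5041, 3309 and 3443 at 2 months, 2745, 2302, 3248 and 2217 at 1 year and 2665, 2898, 2503, 2493 and 2443 at 2 years. In germ-free Gins2 was at 3571, 3914 and 2869.8 at 2 months and 3438 and 2054 at 1 year. WT and IL1R1 KO libraries of both older ages were below those of 2 months. It fell, with log2 differences of -0.68 ± 0.14 (SE) and -0.49 ± 0.15 (SE) in WT (adjusted p = 0.00167 and 0.0475) and -0.57 ± 0.15 (SE) in IL1R1 KO at 2 years (adjusted p = 0.0171). Gins1 was called in WT at 2 years alone of the 5 comparisons, with -0.85 ± 0.25 (SE, adjusted p = 0.0408). Cdc45, Gins3 and Gins4 were not called, with WT differences at 1 year of -0.52 ± 0.22 (SE), -0.43 ± 0.22 (SE) and -0.16 ± 0.10 (SE).

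Of polymerase alpha and primase, which lay the RNA-DNA primers, Pola1, Pola2 and Prim1 gave 3, 3 and 5 age calls, while the primase subunit Prim2 gave 0. Of the polymerases that extend the primers, Pold1 gave 1, while Pold3, Pole and Pole2 gave 0. No test of a contrast between these sets was made. Pola1, the catalytic subunit of polymerase alpha on the X chromosome (chrX:93304767-93632155), was at 1704, 2287, 1657 and 2385 at 2 months, 1507, 1439.8, 1262, 1534 and 1476 at 1 year and 1446, 1151, 1582 and 1682 at 2 years in WT. Pola1 counts in IL1R1 KO were 2415, 2235 and 1988 at 2 months, 1549.6, 1633, 1342 and 1388 at 1 year and 1315, 1639, 1467, 1372 and 1358 at 2 years. In germ-free Pola1 was at 2141, 2335 and 2394 at 2 months and 1477 and 2329.6 at 1 year. WT libraries of 1 year and IL1R1 KO libraries of both older ages were below those of 2 months. Pola1 fell, with log2 differences of -0.46 ± 0.13 (SE) in WT at 1 year, -0.58 ± 0.15 (SE) in IL1R1 KO at 1 year and -0.63 ± 0.14 (SE) at 2 years (adjusted p = 0.0217, 0.0363 and 0.00513). Pola2, its accessory subunit (chr19:5940542-5964202), was at 4429, 5285, 4094 and 4311 at 2 months, 3569, 3945, 3428, 3769 and 3567 at 1 year and 3086, 3597, 3256 and 3955 at 2 years in WT. Pola2 counts in IL1R1 KO were 6163, 4458 and 5216 at 2 months, 3775, 3425, 4194 and 3633 at 1 year and 2895, 4082, 3411, 3345 and 3681 at 2 years. In germ-free Pola2 was at 5052, 4577 and 4243 at 2 months and 3157 and 3760.1 at 1 year. No older group overlapped its 2-month group. It fell, with log2 differences of -0.38 ± 0.11 (SE) in WT at 2 years, -0.48 ± 0.12 (SE) in IL1R1 KO at 1 year and -0.60 ± 0.11 (SE) at 2 years (adjusted p = 0.0368, 0.0303 and 0.00102). Prim1, the catalytic subunit of primase (chr10:128015168-128030037), was at 2194, 2121, 2437 and 2159.9 at 2 months, 1385, 1526, 1688, 1591 and 1405 at 1 year and 1434, 1521, 1303 and 1473 at 2 years in WT. Prim1 counts in IL1R1 KO were 3114, 2789 and 1735 at 2 months, 2044, 1461, 1816 and 1356 at 1 year and 1461, 2101, 1794, 1577 and 1753 at 2 years. In germ-free Prim1 was at 2435, 2159 and 2262 at 2 months and 1272 and 1428 at 1 year. The ages did not overlap in WT and germ-free, but IL1R1 KO 2-month replicate 3 was within the range of the older libraries. The differences were -0.55 ± 0.14 (SE, adjusted p = 0.00734) at 1 year and -0.64 ± 0.14 (SE, adjusted p = 0.00572) at 2 years in WT. They were -0.58 ± 0.15 (SE, adjusted p = 0.0427) and -0.52 ± 0.15 (SE, adjusted p = 0.0267) in IL1R1 KO. In germ-free the difference was -0.76 ± 0.18 (SE, adjusted p = 0.0256). The proofreading polymerase subunit Pold1 fell in WT at 1 year, with -0.40 ± 0.13 (SE, adjusted p = 0.0400). Pole, the catalytic subunit of polymerase epsilon, was at -0.16 ± 0.17 (SE) in WT and 0.12 ± 0.19 (SE) in IL1R1 KO at 1 year.

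Pcna, Rfc2, Rfc4 and Rpa2 fell in WT at 1 year, and Rfc5 was called in both IL1R1 KO comparisons with 2 months. Pcna, the sliding clamp (chr2:132249162-132253314), was at 6078, 6173, 5354 and 5446 at 2 months, 3966, 4426, 4232, 4359 and 3644 at 1 year and 4585, 3727, 4672 and 4540.4 at 2 years in WT. Pcna counts in IL1R1 KO were 6776, 5622 and 5881 at 2 months, 5802, 5041, 4942 and 4674 at 1 year and 5312, 5351, 5267, 5034 and 4927 at 2 years. In germ-free Pcna was at 4783, 6556 and 5671 at 2 months and 4235 and 4509.9 at 1 year. All WT libraries of 1 and 2 years were below those of 2 months, and so were the IL1R1 KO libraries of 2 years and the germ-free libraries of 1 year. Pcna fell, with log2 differences of -0.48 ± 0.09 (SE) and -0.40 ± 0.10 (SE) in WT (adjusted p = 6.06e-04 and 0.00998), and was at -0.25 ± 0.10 (SE, adjusted p = 0.240) and -0.23 ± 0.10 (SE, adjusted p = 0.165) in IL1R1 KO. The clamp loader subunit Rfc2 (chr5:134581366-134601805) was at 7163, 7606, 8184 and 5991 at 2 months, 4684, 5335, 6598, 5563 and 4846 at 1 year and 5903, 5939, 4008 and 5494 at 2 years in WT. Rfc2 counts in IL1R1 KO were 9636, 7553 and 5823 at 2 months, 6079, 5173, 6334 and 5029 at 1 year and 5365, 5632, 5335, 4909 and 5783 at 2 years. In germ-free Rfc2 was at 6289, 6627 and 6327 at 2 months and 5212 and 4822 at 1 year. WT libraries of 2 years, IL1R1 KO libraries of 2 years and germ-free libraries of 1 year were below their 2-month libraries. It fell, with log2 differences of -0.42 ± 0.13 (SE) and -0.45 ± 0.13 (SE) in WT and -0.48 ± 0.14 (SE) in IL1R1 KO at 2 years (adjusted p = 0.0296, 0.0443 and 0.0292). Rfc4, another loader subunit (chr16:23113943-23127737), was at 1059.5, 1309, 993 and 1448 at 2 months, 764, 797, 879, 851 and 734 at 1 year and 1049, 885, 752 and 966 at 2 years in WT. Rfc4 counts in IL1R1 KO were 1722, 1379.7 and 1469 at 2 months, 1016, 969, 1113 and 841 at 1 year and 1033, 1004, 1017, 774 and 1009 at 2 years. In germ-free Rfc4 was at 1249, 1686 and 1033 at 2 months and 954 and 998 at 1 year. Of the older groups WT at 2 years alone overlapped its 2-month group. Rfc4 fell, with log2 differences of -0.56 ± 0.14 (SE) in WT at 1 year and -0.63 ± 0.16 (SE) and -0.66 ± 0.15 (SE) in IL1R1 KO (adjusted p = 0.00775, 0.0330 and 0.00606).

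Rfc5, also of the clamp loader (chr5:117378103-117389047), was at 4036, 4097, 3379 and 3588 at 2 months, 3231, 3441, 4347, 4316 and 3266 at 1 year and 4256, 4297, 3672 and 3665 at 2 years in WT. Rfc5 counts in IL1R1 KO were 5809, 4473 and 4365 at 2 months, 3559.9, 2760.4, 4405 and 2960.5 at 1 year and 3268, 3849.5, 3659, 3464 and 3598 at 2 years. In germ-free Rfc5 was at 3884, 3595 and 3992 at 2 months and 2558 and 3023 at 1 year. All 3 IL1R1 KO 2-month libraries were above all WT 2-month libraries, and the WT ages overlapped. It fell in IL1R1 KO, with log2 differences of -0.52 ± 0.14 (SE) to 1 year and -0.44 ± 0.13 (SE) to 2 years (adjusted p = 0.0389 and 0.0326), and was at -0.03 ± 0.12 (SE, adjusted p = 0.923) in WT at 1 year. Rpa2, a subunit of the complex that coats single-stranded DNA (chr4:132768332-132778752), was at 3601, 3641, 3419 and 3327 at 2 months, 2534, 2775, 2583, 2925 and 2502 at 1 year and 2501, 2781, 2238 and 2522 at 2 years in WT. Rpa2 counts in IL1R1 KO were 4368, 3746 and 3237 at 2 months, 3196, 2136, 3036 and 2418 at 1 year and 2363, 2744, 2646, 2362 and 2811 at 2 years. In germ-free Rpa2 was at 3008, 3242 and 3023 at 2 months and 2397 and 2449 at 1 year. No older group overlapped its 2-month group. The differences were -0.39 ± 0.10 (SE, adjusted p = 0.0121) and -0.48 ± 0.11 (SE, adjusted p = 0.00584) in WT, and -0.50 ± 0.12 (SE, adjusted p = 0.0216) and -0.54 ± 0.11 (SE, adjusted p = 0.00220) in IL1R1 KO. Rfc3 was not called in any age comparison, with WT differences of -0.23 ± 0.10 (SE) and -0.19 ± 0.11 (SE).

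Both Okazaki fragment enzymes fell in WT at 1 year. Fen1, the flap endonuclease (chr19:10199132-10204169), was at 3731, 3698, 3565 and 4489.9 at 2 months, 2099, 2673, 2969, 3385 and 2546 at 1 year and 2969, 2947, 2649 and 2694 at 2 years in WT. Fen1 counts in IL1R1 KO were 5293, 3873 and 3767 at 2 months, 3497, 1941, 3164 and 2316 at 1 year and 2986, 3446, 3320.1, 2842 and 3106 at 2 years. In germ-free Fen1 was at 3191, 3254 and 3270.5 at 2 months and 2382 and 2748 at 1 year. In all 5 comparisons every older library was below every 2-month library. Fen1 fell, with log2 differences of -0.51 ± 0.14 (SE) in WT and -0.68 ± 0.16 (SE) in IL1R1 KO at 1 year (adjusted p = 0.0157 and 0.0204). Lig1, the replicative DNA ligase (chr7:13277283-13311433), was at 3074, 3394, 3057 and 3570.0 at 2 months, 1766, 1796, 1639, 1867 and 1812 at 1 year and 2201, 1869, 2218 and 1897 at 2 years in WT. Lig1 counts in IL1R1 KO were 3475, 3548 and 2271 at 2 months, 2802, 2196, 2327 and 1689.7 at 1 year and 1485, 2365, 2122, 1774 and 2082 at 2 years. In germ-free Lig1 was at 2920.5, 3517 and 3042 at 2 months and 2357 and 2113 at 1 year. The WT 2-month libraries were all above 3000 and the WT 1-year libraries all below 1900. Lig1 had the smallest adjusted p of the 39 genes, with -0.88 ± 0.14 (SE, adjusted p = 6.22e-05) in WT at 1 year and -0.68 ± 0.14 (SE, adjusted p = 0.00337) at 2 years. In IL1R1 KO it fell, with log2 differences of -0.65 ± 0.15 (SE) to 2 years (adjusted p = 0.00590) and was at -0.45 ± 0.16 (SE, adjusted p = 0.140) at 1 year, where 2-month replicate 3 was within the older range.

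**Figure D4:**
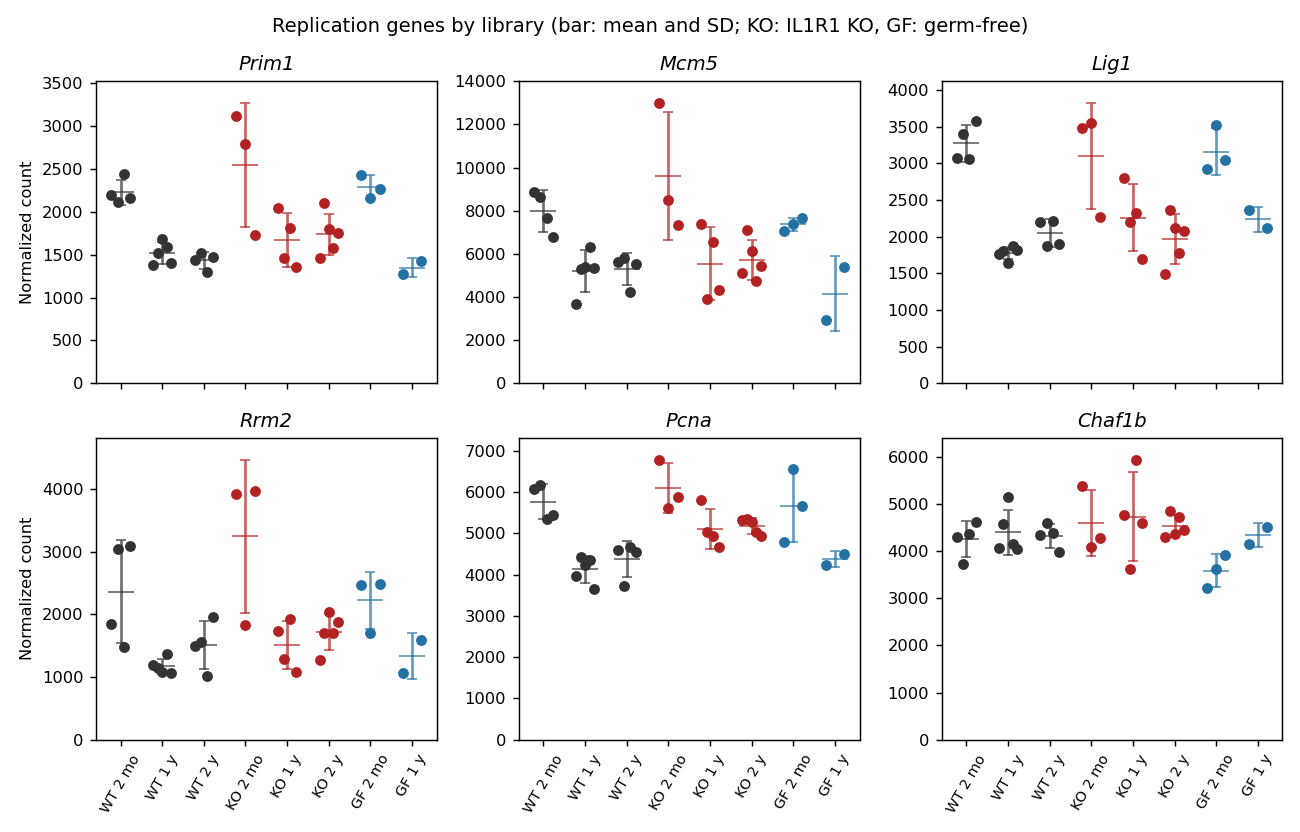
Normalized counts of 6 replication genes in every library (points) with group mean and SD (bars), on linear axes from 0. In WT the 2-month libraries of Prim1, Mcm5, Lig1 and Pcna all stand above the older ones, and Chaf1b shows overlapping ages in all 3 backgrounds except germ-free, where 1 year is the higher.

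Of the nucleotide supply genes Rrm2, Tyms and Tk1 fell in WT and IL1R1 KO at 1 year, and Rrm2 and Tk1 had the lowest estimates of the 39 genes in IL1R1 KO at that age. Rrm2, the S-phase subunit of ribonucleotide reductase (chr12:24708241-24714146), was at 1846, 3043, 1480.4 and 3084 at 2 months, 1196, 1137, 1081, 1368 and 1058 at 1 year and 1502, 1564, 1021 and 1959.9 at 2 years in WT. Rrm2 counts in IL1R1 KO were 3918, 1836 and 3974 at 2 months, 1728, 1289.7, 1927 and 1086 at 1 year and 1275, 1706, 2032, 1696 and 1880.2 at 2 years. In germ-free Rrm2 was at 2470.1, 1702 and 2489 at 2 months and 1069 and 1591 at 1 year. Both WT 2-month libraries of high Mpo were near 3000 while the others were at 1846 and 1480. The same order of these libraries was seen for Cdc6, Mcm4, Mcm10, Pola1, Rfc4 and Lig1 among others, and the reverse for Orc1, Mcm2 and Prim1 among others. Rrm2 fell, with log2 differences of -0.95 ± 0.24 (SE) in WT at 1 year and -1.06 ± 0.27 (SE) and -0.85 ± 0.26 (SE) in IL1R1 KO (adjusted p = 0.00830, 0.0359 and 0.0384). Tyms, thymidylate synthase (chr5:30058202-30073617), was at 3181, 3070.5, 3207 and 2523 at 2 months, 1775, 2240.0, 2124, 2081 and 1857 at 1 year and 2333, 2333, 1787 and 2419 at 2 years in WT. Tyms counts in IL1R1 KO were 4363, 3028 and 3833 at 2 months, 2919, 1607, 2629 and 1947 at 1 year and 1936, 2492, 2632, 1631 and 2544 at 2 years. In germ-free Tyms was at 3154, 3371 and 3385 at 2 months and 1739 and 2151 at 1 year. No older group overlapped its 2-month group. It fell, with log2 differences of -0.57 ± 0.15 (SE) in WT at 1 year, -0.74 ± 0.18 (SE) and -0.74 ± 0.17 (SE) in IL1R1 KO and -0.77 ± 0.21 (SE) in germ-free (adjusted p = 0.0159, 0.0232, 0.00513 and 0.0489). Tk1, the thymidine kinase of the salvage pathway (chr11:117815526-117826092), was at 1883, 1953, 1985 and 2044 at 2 months, 1371, 1602, 1267, 1493 and 1487 at 1 year and 1689, 1521, 1365 and 1627 at 2 years in WT. Tk1 counts in IL1R1 KO were 3654, 2448 and 2605 at 2 months, 2072, 1118, 1497 and 1262 at 1 year and 1486, 1969, 1851, 1374 and 1725 at 2 years. In germ-free Tk1 was at 1932, 2727 and 2026 at 2 months and 1403 and 1498 at 1 year. No older group overlapped its 2-month group, and all 3 IL1R1 KO 2-month libraries were above the 4 WT ones. Tk1 fell, with log2 differences of -0.98 ± 0.17 (SE) and -0.78 ± 0.16 (SE) in IL1R1 KO and -0.45 ± 0.15 (SE) in WT at 1 year (adjusted p = 0.00108, 0.00203 and 0.0460). Rrm1, the other reductase subunit, was not called, at -0.42 ± 0.14 (SE) in WT and -0.43 ± 0.16 (SE) in IL1R1 KO at 1 year.

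Of the chromatin and methylation factors, Chaf1a was called at both ages and Uhrf1 at 2 years in IL1R1 KO, and their interactions with WT, given further on, did not pass the test. Chaf1a, the large subunit of chromatin assembly factor 1 (chr17:56040439-56072289), was at 2355, 1994, 2072 and 1703 at 2 months, 1445, 1772, 1653, 1668 and 1677 at 1 year and 1550.4, 1765, 1317 and 1825 at 2 years in WT. Chaf1a counts in IL1R1 KO were 3213, 2703 and 2189 at 2 months, 2015, 1188, 1551 and 1103 at 1 year and 1457, 1662, 2072, 1319 and 1759 at 2 years. In germ-free Chaf1a was at 1459, 2121 and 1929 at 2 months and 1034 and 1643 at 1 year. Older IL1R1 KO libraries were all below those of 2 months, and the WT ages overlapped. It fell, with log2 differences of -0.91 ± 0.19 (SE) and -0.71 ± 0.18 (SE) in IL1R1 KO (adjusted p = 0.00976 and 0.0146), and was at -0.30 ± 0.17 (SE, adjusted p = 0.296) in WT at 1 year. Uhrf1, which guides DNA methylation to newly made strands (chr17:56303321-56323486), was at 5948, 5780.0, 4720.0 and 4211 at 2 months, 3463, 3900.4, 3418, 4144 and 3552 at 1 year and 3412, 3887, 2422 and 4222 at 2 years in WT. Uhrf1 counts in IL1R1 KO were 8343, 5737 and 4049.5 at 2 months, 4558, 2496, 3349 and 3369 at 1 year and 2758, 3801, 3826, 3208 and 4452 at 2 years. In germ-free Uhrf1 was at 4422, 4415 and 4704 at 2 months and 1847 and 3312 at 1 year. The 1-year groups of WT and germ-free were wholly below 2 months. Uhrf1 fell, with log2 differences of -0.70 ± 0.21 (SE) in IL1R1 KO at 2 years (adjusted p = 0.0360) and was at -0.47 ± 0.19 (SE, adjusted p = 0.125) in WT at 1 year. Chaf1b, the middle subunit of the same assembly factor as Chaf1a, was called in no comparison, with age differences of 0.05 ± 0.11 (SE) and 0.03 ± 0.11 (SE) in WT, 0.03 ± 0.12 (SE) and -0.01 ± 0.12 (SE) in IL1R1 KO and 0.28 ± 0.15 (SE) in germ-free.

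Not every call held when a library was left out. In WT at 1 year 10 of the 18 calls held with each of the 30 libraries left out in turn: Orc6, Mcm10, Gins2, Prim1, Pcna, Rfc4, Rpa2, Lig1, Rrm2 and Tyms. At 2 years in WT Prim1, Rpa2 and Lig1 held, in IL1R1 KO Tk1 held at 1 year and Pola1, Pola2, Rpa2 and Tk1 at 2 years, and no germ-free call held. Leaving out IL1R1 KO 2-month replicate 1 ended 11 of the 12 calls at 1 year and 13 of the 17 at 2 years. Of the 10 calls of WT at 1 year, those of Mcm10, Rfc4, Rpa2 and Rrm2 ended without the 2-month libraries of high Mpo. The calls of Cdc6, Mcm4, Mcm5, Pola1, Pold1, Fen1 and Tk1 at that age, which had not held with each library left out, ended as well. In IL1R1 KO, where 1 library was left at 2 months, the calls of Tk1, Pola1, Pola2 and Rpa2 listed above ended too. With the granulocyte precursor covariate the WT 1-year calls of Cdc6, Mcm4, Mcm5, Pola1, Pold1 and Rrm2 ended. Under all 38 alternatives the calls of Orc6, Gins2, Prim1, Pcna, Lig1 and Tyms in WT at 1 year and of Prim1, Rpa2 and Lig1 at 2 years held, and 0 calls in IL1R1 KO or germ-free did.

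Other genes of replication and of G1 control were counted in 2 further lists. Of 47 other replication genes, 15 fell and 0 rose in WT at 1 year (4.61% of all tested genes called lower), with a median of -0.29. The 4 with the smallest p were the histone chaperone Nasp at -0.74 ± 0.12 (SE, adjusted p = 6.22e-05), geminin (Gmnn), the inhibitor of Cdt1, at -0.87 ± 0.14 (SE, adjusted p = 8.94e-05), the fork protection factor Tipin at -0.82 ± 0.13 (SE, adjusted p = 9.96e-05) and the dUTPase Dut at -0.53 ± 0.10 (SE, adjusted p = 7.43e-04). In the other age comparisons 9 of the 47 fell in WT at 2 years, 7 and 9 in IL1R1 KO at 1 and 2 years and 0 in germ-free, with 0 higher in each. Of all tested genes 1.63%, 0.613%, 2.9% and 0.814% were called lower in these comparisons. Of 30 regulators of the passage from G1 to S, 3 rose and 5 fell in WT at 1 year (10.7% of all tested genes called), with a median of -0.19. Cyclin D1 (Ccnd1), which drives early G1, rose by 0.90 ± 0.15 (SE, adjusted p = 1.49e-04), with counts of 1453, 1499, 1406 and 1623 at 2 months and 2419, 2951, 2967, 2865 and 2752 at 1 year. The retinoblastoma gene Rb1, a repressor of E2F targets, rose by 1.00 ± 0.21 (SE, adjusted p = 0.00195) and Mycn by 0.72 ± 0.17 (SE, adjusted p = 0.00555), while cyclin E1 (Ccne1), which acts at the start of S phase, fell, with -1.25 ± 0.28 (SE, adjusted p = 0.00294). The regulators called were 3 higher and 1 lower in WT at 2 years (5.55% of all tested genes called), 1 and 1 in IL1R1 KO at 1 year (2%), 4 and 2 at 2 years (8.02%), and 0 and 1 in germ-free (2.1%). These are counts of few genes.

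At a given age the 39 genes did not pass the test between IL1R1 KO and WT. With limma 0 genes were called at 2 months, 1 year and 2 years, and 4, 3 and 1 were at an unadjusted p under 0.05 (0.407%, 1.3% and 1.42% of all tested genes called). The median differences were 0.13, 0.04 and 0.08. Pcna was nearest to a call, at 0.31 ± 0.09 (SE, adjusted p = 0.0929) at 1 year and 0.25 ± 0.09 (SE, adjusted p = 0.220) at 2 years, and at both ages all IL1R1 KO libraries were above all WT libraries. Tk1 was at 0.54 ± 0.17 (SE, adjusted p = 0.218) and Rfc5 at 0.36 ± 0.14 (SE, adjusted p = 0.352) at 2 months. The difference in age change between the backgrounds was tested as an interaction. No gene was called to 1 year or to 2 years, with 4 and 1 at an unadjusted p under 0.05 (0.0354% and 0.395% of all tested genes called) and medians of -0.07 and -0.03. The smallest p was that of Rfc5, at -0.50 ± 0.18 (SE, adjusted p = 0.324) to 1 year and -0.52 ± 0.18 (SE, adjusted p = 0.263) to 2 years. Chaf1a, called with age in IL1R1 KO but not in WT, had an interaction of -0.61 ± 0.26 (SE, adjusted p = 0.405) to 1 year and -0.37 ± 0.26 (SE, adjusted p = 0.707) to 2 years. That of Uhrf1 to 2 years was -0.12 ± 0.29 (SE, adjusted p = 0.955), and that of Lig1 to 1 year was 0.43 ± 0.21 (SE, adjusted p = 0.488). A p above the threshold does not show that the 2 backgrounds changed alike.

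**Figure D5:**
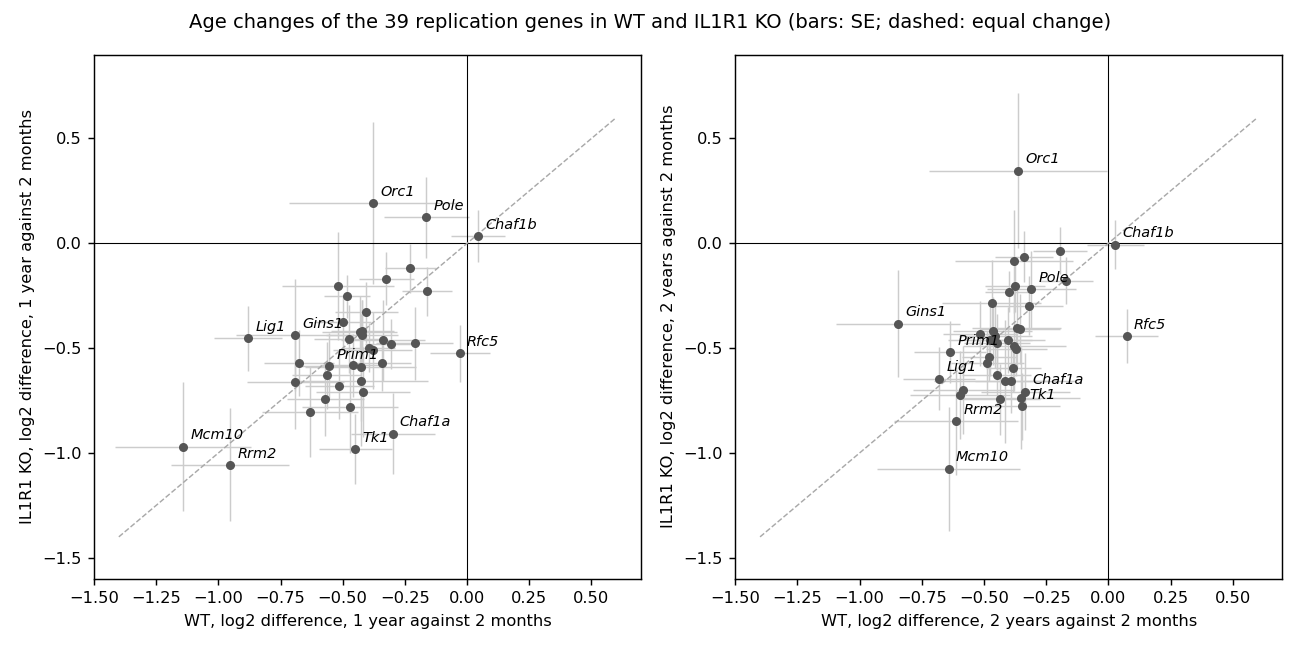
Log2 difference from 2 months in WT (horizontal) and IL1R1 KO (vertical) for each of the 39 genes, at 1 year (left) and 2 years (right), with SE bars and a dashed line of equal change. Most genes lie below 0 on both axes in both panels; Orc1, Pole, Rfc5 and Chaf1b are the genes with a value above 0.

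Against WT of the same age, germ-free libraries gave 0 called genes at 2 months by limma, with 2 at an unadjusted p under 0.05 and a median of -0.12 (0.601% of all tested genes called). At 1 year 1 gene was called, with 6 at an unadjusted p under 0.05 and a median of -0.10 (4.96% called, 3.13% lower). That gene was Mcm6, at 5667 and 7545 in germ-free against 9232, 12322, 13807, 12597 and 11405 in WT, a difference of -0.85 ± 0.20 (SE, adjusted p = 0.0136). Mcm6 was also lower in all germ-free 2-month libraries than in WT, 9897, 11841 and 12550.4 against 15989, 16308, 14919.6 and 14141, with a difference of -0.43 ± 0.18 (SE, adjusted p = 0.425). The call at 1 year rested on germ-free replicate 1, which had the lowest depth: without it the adjusted p was 0.253. Pole was the highest of the 39 genes in this comparison, at 0.64 ± 0.21 (SE, adjusted p = 0.0733), and all germ-free libraries were above all WT libraries at both ages. In 8 genes both germ-free 1-year libraries were below all WT ones and in 3 above, where 13.1% of all tested genes were wholly below and 13.2% wholly above. The change to 1 year did not differ by the test from that of WT: limma called 0 genes, 1 was at an unadjusted p under 0.05 (0% of all tested genes called), and the median was -0.04. Ccnd1, 1 of the 4 regulators of the G1 to S list called lower in germ-free at 1 year, was at -1.39 ± 0.19 (SE, adjusted p = 1.19e-04).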

How the data were processed

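The deposited table holds normalized counts per Ensembl gene for all 30 libraries, a signal on a linear scale. Per the submitters' processing notes the authors checked reads with FastQC (version 0.11.9), and their tools included cutadapt (version 2.10), Salmon (version 1.2.0.0) and DESeq2 (version 1.26.0), on GRCm38 (mm10); per the labels' protocols the libraries were Smart-seq2, single-end, on NovaSeq. The values are fractional and whole reads could not be recovered, so no count model was used. Depth was estimated from the most common low value of each library, which stands for 1 read, and no interval is given from it. Symbols came from GENCODE M21.

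Log2(normalized count + 1) was fitted with limma 3.58.1 (R 4.3.3; group means over all 30 libraries, empirical Bayes with trend and robust settings), for genes of at least 10 in at least 3 libraries, after a test on simulated data. Tests were two-sided, with Benjamini-Hochberg adjustment over 16958 genes and a threshold of 0.05. Fold changes on this scale understate the change of low genes. SE are limma's. Alternatives were a pseudocount of 10, no filter, upper-quartile rescaling, the compared groups alone, a replicate block, a granulocyte precursor covariate, the 1-year library with disagreeing age labels placed at 2 months, 2-month libraries of high Mpo left out, and each library left out in turn. Members and gene lists were chosen with earlier results of these data known. All 39 genes may be named; values in every library are given for up to 2 genes per role with the smallest p in WT at 1 year and for genes called in any comparison other than age in WT, and up to 4 genes with the smallest p are named from each other list. No pair of libraries held identical values. Promoter sequences are from RefSeq, GRCm38.p6.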

Additional observations from a re-analysis of the deposited data

Results flagged for a closer look

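Within groups of 4 or 5 libraries 7 values of 125 groups tested stood apart from the rest, which is 5.6% and close to the 1 in 20 that chance alone flags, so their number is no result. WT 2-year replicate 3 accounted for 4 of them, each at the low end: Mcm5 at 4218, Mcm7 at 6168 and Tyms at 1787 normalized counts, and a mean log2 value of the 39 genes of 10.7, which includes these genes and is not separate from them. The other values that stood apart were Gins2 at 2699 in WT 1-year replicate 4, the highest there, Pcna at 3727 in WT 2-year replicate 2, and Rfc4 at 774 in IL1R1 KO 2-year replicate 4, both the lowest of their group.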

How the results depend on the processing

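No called difference of a single gene changed sign under an alternative. Of the single-gene results over the 5 comparisons with 2 months and germ-free against WT at 1 year, under 38 alternatives, 8401 kept their side of the threshold, 380 called ones no longer passed it and 111 uncalled ones did. No gene was called between IL1R1 KO and WT, between 1 and 2 years, between germ-free and WT at 2 months or in an interaction, with any library left out (0 to 0 calls). Counts of called genes depended on the fit. With only the compared groups they were 28 in WT at 1 year, 5 in WT at 2 years, 0 and 11 in IL1R1 KO at 1 and 2 years, 0 in germ-free and 2 for germ-free against WT at 1 year. Without the 2-month libraries of high Mpo they were 7 in WT at 1 year, 0 and 1 in IL1R1 KO, 1 in germ-free and 2 for germ-free against WT at 1 year. Without a filter they were 4 in WT at 2 years and 1 in germ-free. With IL1R1 KO 1-year replicate 1 placed at 2 months they were 7 and 10 in IL1R1 KO at 1 and 2 years, and with the granulocyte precursor covariate 7 in IL1R1 KO at 1 year. The cause of these shifts was not tested. The share of all tested genes called in each of these fits is not given here, so a general shift in calls cannot be seen. With each library left out in turn the counts were 11 to 22 in WT at 1 year, 4 to 11 at 2 years, 1 to 19 and 4 to 23 in IL1R1 KO, 0 to 5 in germ-free and 0 to 2 for germ-free against WT at 1 year.

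The replicate numbers of the titles were also fitted as a replicate block. They were not taken to pair libraries, though the values do not settle whether same-numbered libraries are linked. The deviations of the 88 same-numbered pairs had a median correlation of 0.0054, with 5 above 0.1, and pairs of different numbers had a median of -0.00087. Of 30 libraries, 11 correlated best with their own number, and no chance value for that count was worked out. With the block the calls were 13 and 5 in WT at 1 and 2 years, 7 and 12 in IL1R1 KO and 2 in germ-free. The share of all tested genes called with the block is not given here either. With 2 to 5 libraries a group, and 2 for germ-free at 1 year, differences well inside the within-group SD could not be resolved.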
